A study of Mus musculus with 12 samples.

Results

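Bone morphogenetic protein (BMP) signalling in limb mesenchyme was described with 35 genes, listed by symbol and grouped by role as ligands, receptors, co-receptors, Smads, Id targets, and antagonists and modulators. The list used no measured value, but it was chosen with earlier results of these data known. Each of the 35 symbols matched a single gene among the 54532 listed, and all 35 passed the filter on low values, 10 or more normalised counts in 6 or more libraries, which left 16733 genes to test.

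BMPs are secreted dimers that bind paired type I and type II serine/threonine kinase receptors. The type I receptor phosphorylates *Smad1*, *Smad5* or *Smad9* products, which join Smad4, enter the nucleus and switch on targets such as the *Id* genes, while secreted antagonists hold the ligands away from their receptors. In the limb the pathway drives mesenchymal condensation and cartilage growth and interdigital cell death, and its antagonists are needed where joints form.

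The study compared 6 iCreb5 libraries with 6 tdTomato libraries of limb bud mesenchyme of E14.5 embryos. Males carrying *Prrx1*-Cre were crossed to females with Cre-dependent alleles at *Rosa26*. The iCreb5 embryos expressed HA-tagged bovine Creb5, a leucine zipper transcription factor, together with GFP, and the tdTomato embryos expressed a red fluorescent protein instead. Cells were sorted by fluorescence and polyadenylated RNA was sequenced. Both groups carried *Prrx1*-Cre, whose limb enhancer restricts recombination largely to limb mesenchyme and the cell types that descend from it. There were 3 iCreb5 and 3 tdTomato libraries from litter 3, and 1 of either kind from litters 4, 5 and 6. Batch labels followed the litters, and the effects of batch and of litter cannot be told apart. The sources used here do not say whether embryos were pooled, and p-values therefore cover only the spread among libraries, which may be technical. Values are normalised counts, that is, reads scaled by library-specific size factors. Libraries held 21.6 to 49.2 M reads, where M stands for 1000000, in the iCreb5 group and 9.02 to 53.3 M in the tdTomato group.

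*Creb5* itself averaged 2799 ± 214 normalised counts in iCreb5 libraries and 1803 ± 299 in tdTomato libraries (SD, n = 6 each), without overlap between the groups. The sources used here do not say how reads from the bovine transgene were counted. Of 7 limb mesenchyme markers, 1 was higher and 0 were lower by limma at an adjusted p under 0.05, and none was at 0 in any library. Markers of several other cell types differed between the groups. All 8 chondrocyte markers were lower, with a summed level of 75029 to 110180 normalised counts in iCreb5 libraries and 143590 to 348780 in tdTomato libraries. Of 6 hypertrophic chondrocyte and osteoblast markers tested, 5 were lower, with sums of 3566 to 16087 in iCreb5 libraries and 13431 to 46202 in tdTomato libraries, and *Bglap* was at 0 in at least 1 library. The 6 leukocyte markers were all higher, with sums of 1213 to 4628 in iCreb5 libraries and 290 to 456 in tdTomato libraries, and *Ptprc* was at 0 in at least 1 library. Of 6 endothelial markers 5 were higher, with sums of 1247 to 3629 in iCreb5 libraries and 957 to 1404 in tdTomato libraries. Of 4 Schwann cell and melanoblast markers, 1 was lower. Of 5 skeletal muscle markers and 4 epidermal markers, 0 were called. Skeletal muscle markers summed to 828 to 2450 in iCreb5 libraries and 972 to 2217 in tdTomato libraries. Epidermal markers summed to 211 to 517 in iCreb5 and 301 to 559 in tdTomato libraries, with *Cdh1* at 0 in at least 1 library. The part of these cell types in the results on BMP genes was not tested. In bulk RNA, fewer cells of a type and less RNA per cell cannot be told apart.

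Of the 35 BMP genes, 3 rose in iCreb5 libraries and 2 fell. The ligand *Bmp3*, the inhibitor *Grem1* and the transducer *Smad1* rose, and the ligand *Bmp5* and the extracellular modulator *Bmper* fell (limma, adjusted p under 0.05). Over all genes tested 3.87% rose and 2.85% fell, shares at which 35 genes would give 1.36 and 0.998 calls. The remaining 30 members had adjusted p-values between 0.0816 and 0.996. Counting those called, 11 of the 35 members had an unadjusted p under 0.05 by limma, where 18.2% of all genes tested did. They comprised 3 of 6 ligands, 6 of 11 antagonists and modulators, 1 of 6 receptors and 1 of 6 Smads. No *Id* gene and no co-receptor was among them. The median log2 change, iCreb5 over tdTomato on the log2(value + 1) scale, was 0.06 over the members and 0.0038 over all genes tested, and 21 members had a positive and 14 a negative change. Only *Bmp3* among the members had all its iCreb5 libraries above all tdTomato libraries, an arrangement found in 2.83% of all genes tested. Likewise only *Bmp5* had all its iCreb5 libraries below, as did 1.92% of all genes tested.

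The sequences around the start sites of 4 of the 5 changed genes are shown so that the start regions behind the changed transcripts can be read. They are RefSeq sequences of build GRCm38.p6, 250 bases before to 50 bases after the start, in lower case and on the gene's strand. Capitals mark a match to 1 of the motifs searched. The table used matched 23 of the 35 members, in 29 windows, and *Bmp3* was not among them.
*Bmp5*, chr9:75775115-75775414, plus strand: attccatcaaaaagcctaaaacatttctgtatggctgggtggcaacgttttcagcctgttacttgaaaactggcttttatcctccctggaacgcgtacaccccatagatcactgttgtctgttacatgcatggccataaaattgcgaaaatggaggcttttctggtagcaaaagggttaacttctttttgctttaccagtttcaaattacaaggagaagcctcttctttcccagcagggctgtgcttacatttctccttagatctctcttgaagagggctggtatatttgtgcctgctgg
*Bmper*, chr9:23222826-23223125, plus strand: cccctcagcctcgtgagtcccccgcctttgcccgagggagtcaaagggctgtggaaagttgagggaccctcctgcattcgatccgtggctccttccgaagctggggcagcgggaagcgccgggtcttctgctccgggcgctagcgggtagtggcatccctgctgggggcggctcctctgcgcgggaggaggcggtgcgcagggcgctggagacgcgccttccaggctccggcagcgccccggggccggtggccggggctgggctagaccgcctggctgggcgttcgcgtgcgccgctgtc
*Grem1*, chr2:113758599-113758898, minus strand: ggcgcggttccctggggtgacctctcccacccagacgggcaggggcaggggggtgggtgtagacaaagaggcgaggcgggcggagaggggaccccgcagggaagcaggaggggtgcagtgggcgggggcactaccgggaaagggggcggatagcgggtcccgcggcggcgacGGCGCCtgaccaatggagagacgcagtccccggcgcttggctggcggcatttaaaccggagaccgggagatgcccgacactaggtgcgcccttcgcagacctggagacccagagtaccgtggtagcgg
*Smad1*, chr8:79399379-79399678, minus strand: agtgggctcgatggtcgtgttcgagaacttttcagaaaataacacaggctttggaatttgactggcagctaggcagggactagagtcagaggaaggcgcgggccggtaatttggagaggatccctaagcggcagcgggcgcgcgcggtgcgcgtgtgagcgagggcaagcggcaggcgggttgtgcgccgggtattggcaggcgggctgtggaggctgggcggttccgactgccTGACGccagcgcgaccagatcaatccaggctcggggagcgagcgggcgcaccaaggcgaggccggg

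Motifs were sought on both strands. The full cAMP response element TGACGTCA, bound by CREB-family factors, was in 0 of the 29 member windows and in 1.79% of all 32851 windows in the table. Its half-site TGACG, which the full element contains, was in 7 of the 29 member windows and in 20.8% of all. The AP-1 motif TGANTCA was in 0 of 29 member windows and 7.81% of all, and the GC-rich Smad element GGCGCC was in 11 of 29 and 11.9% of all. Counted by gene, the Smad element was in 10 of 23 members, since overlapping windows of *Smad5* both hold it. Member windows and all windows were not matched for G and C content. In the printed sequences the half-site stands in *Smad1* and the Smad element in *Grem1*, and *Bmp5* and *Bmper* hold no match in these windows. The *Bmp5* window was 43.3% G and C, against 72.7% in *Bmper*, 70.7% in *Grem1* and 65.0% in *Smad1*. A match is a stretch of letters, not evidence that a factor binds there.

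The ligand genes were expressed at different levels, compared here as normalised counts per kilobase of merged exons. *Bmp4*, which patterns the limb and its cartilage, was highest in both groups, at 593 per kilobase in iCreb5 libraries and 544 in tdTomato libraries. *Bmp7*, expressed in early limb ectoderm and mesenchyme, followed at 467 in iCreb5 and 452 in tdTomato libraries, and *Bmp2* came next in both groups at 255 in iCreb5 and 342 in tdTomato libraries. In iCreb5 libraries *Bmp3* followed at 209 per kilobase and *Bmp5* at 102. In tdTomato libraries their order was the reverse, with *Bmp5* at 328 and *Bmp3* at 102 per kilobase. *Bmp6* was lowest in both groups.

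**Figure D1:**
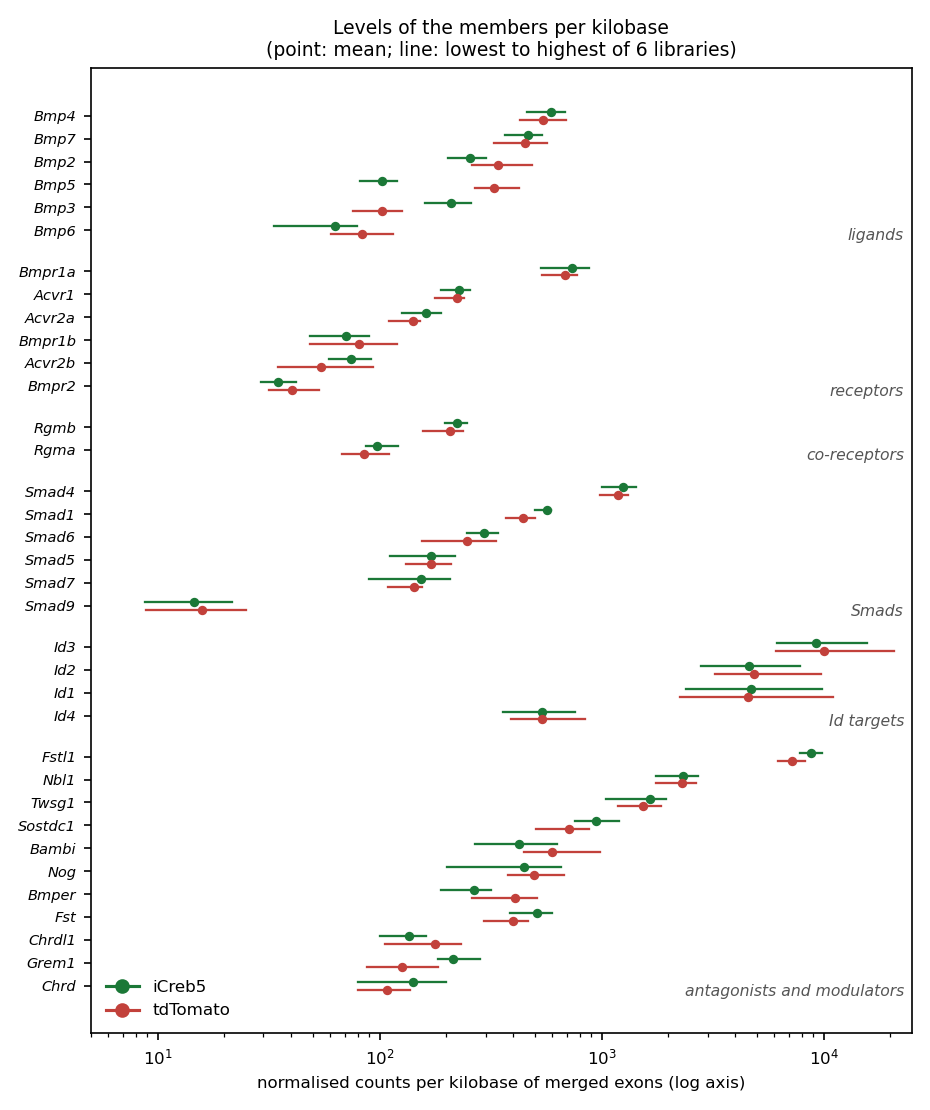
Mean level of each of the 35 BMP genes in normalised counts per kilobase of merged exons on a log axis, by role, with iCreb5 above tdTomato and lines from the lowest to the highest of 6 libraries. *Bmp3* and *Bmp5* are the genes whose lines do not overlap between the groups, and *Id1*, *Id2*, *Id3* and *Fstl1* have the highest means.

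*Bmp3* (ENSMUSG00000029335, chr5:98854415-98884396 in mm10), an atypical ligand that opposes BMP signalling and limits bone density in mice, rose. It had 1474, 1472, 1676, 1904, 1186 and 1588 normalised counts in iCreb5 libraries 3a, 3b, 3c, 4a, 5 and 6, against 790, 736, 935, 806, 561 and 704 in tdTomato libraries 3a, 3b, 3c, 4a, 5b and 6d. The lowest iCreb5 library lay above the highest tdTomato library. The log2 change was 1.04 ± 0.139 (SE), a 2.05-fold higher level, with an adjusted p of 0.000182 by limma.

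*Bmp5* (ENSMUSG00000032179, chr9:75775364-75900310), the gene behind the mouse short ear mutation, which alters skeletal condensations, fell. It had 427, 404, 394, 431, 328 and 484 normalised counts in iCreb5 libraries 3a, 3b, 3c, 4a, 5 and 6, against 1611, 1083, 1701, 1235, 1184 and 1100 in tdTomato libraries 3a, 3b, 3c, 4a, 5b and 6d. The highest iCreb5 library lay well below the lowest tdTomato library. The log2 change was -1.66 ± 0.144 (SE), a 3.17-fold lower level, with an adjusted p of 2.82e-06 by limma. The antisense gene *Gm26903*, named for its overlap, covers 1878 of the 4025 exon bases of *Bmp5*, and since the library kit does not mark strand, reads from these shared bases cannot be told apart by strand. *Gm26903* was at 0.822 to 5.06 normalised counts in iCreb5 libraries and 0 to 33.5 in tdTomato libraries, far below *Bmp5* in each library.

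The other 4 ligands did not pass the test. *Bmp2*, a driver of cartilage and bone formation, averaged 908 ± 126 normalised counts in iCreb5 libraries and 1214 ± 266 in tdTomato libraries (SD, n = 6 each), with a log2 change of -0.40 and a limma adjusted p of 0.124. *Bmp6*, made by hypertrophic cartilage and known for iron control in liver, averaged 244 ± 62.0 in iCreb5 and 324 ± 88.5 in tdTomato libraries. Exons of the antisense neighbour *Txndc5*, at 15960 normalised counts or more in every library, cover 5.74% of the exon bases of *Bmp6*. *Bmp4* averaged 1332 ± 180 in iCreb5 and 1222 ± 234 in tdTomato libraries, and *Bmp7* 1876 ± 279 in iCreb5 and 1816 ± 353 in tdTomato libraries. With the groups of all 4 overlapping, the 95% intervals of the log2 change ran from -0.16 to 0.43 for *Bmp4* and from -0.25 to 0.36 for *Bmp7*. Summed over the 6 ligands, the level was 5266 to 7179 normalised counts in iCreb5 libraries and 5182 to 7812 in tdTomato libraries.

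**Figure D2:**
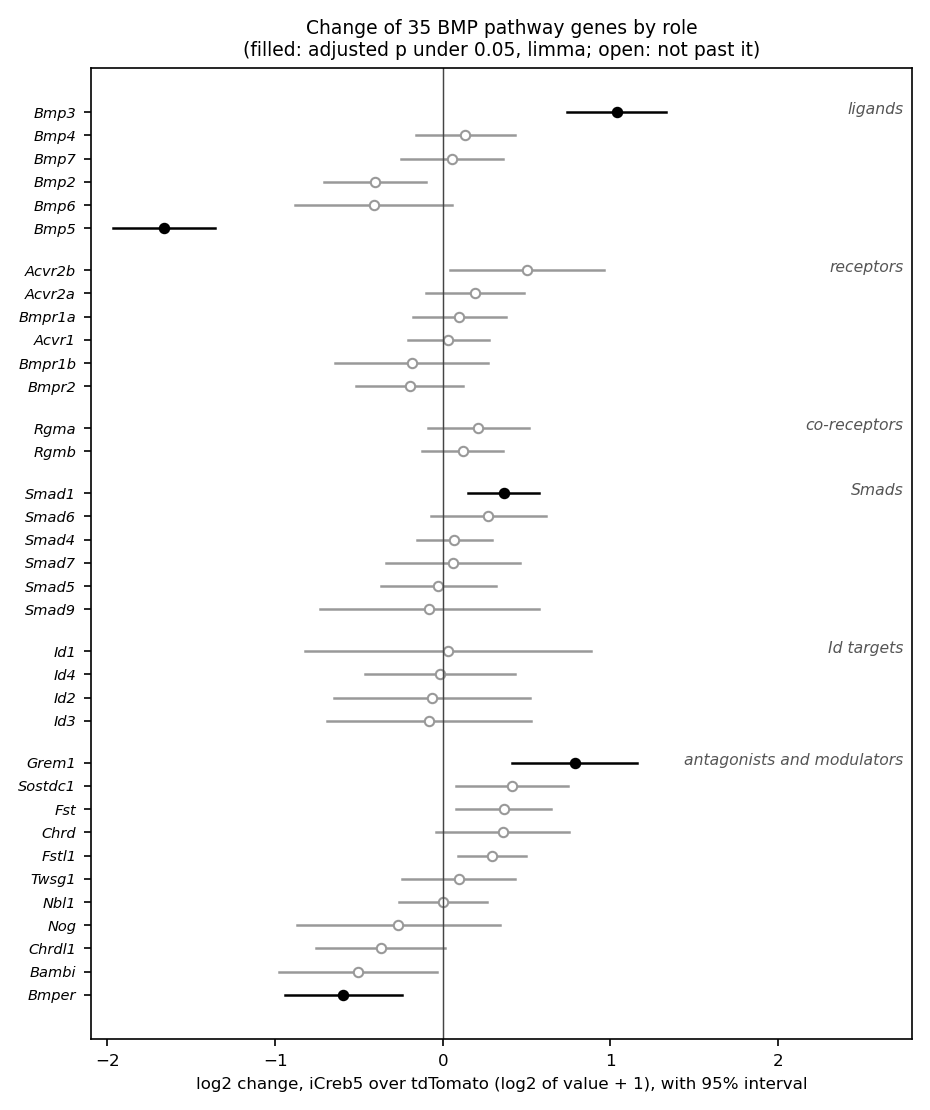
Log2 change of each BMP gene, iCreb5 over tdTomato, with its 95% interval, by role. Filled points are the 5 genes past an adjusted p of 0.05 by limma, with *Bmp5* at -1.66 and *Bmp3* at 1.04 as the ends of the range.

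None of the 6 receptor genes and neither co-receptor passed the test by limma. Of the receptors 1, *Acvr2b*, had an unadjusted p under 0.05, and no co-receptor did. On the recovered reads edgeR and DESeq2 called 0 of these genes, where they called 1112 and 1637 of the 16733 genes tested. Over all genes tested, 18.2% had an unadjusted p under 0.05. Per kilobase the type I receptor gene *Bmpr1a*, required for cartilage formation in mice, was highest, at 736 in iCreb5 libraries and 683 in tdTomato libraries, and averaged 4675 ± 811 normalised counts in iCreb5 and 4338 ± 564 in tdTomato libraries. The type II receptor gene *Bmpr2* was lowest per kilobase, at 34.8 in iCreb5 and 40.3 in tdTomato libraries, with normalised counts of 625 ± 84.0 in iCreb5 and 725 ± 160 in tdTomato libraries. This rank depends on its merged exon length, 17983 bases against 6351 for *Bmpr1a*. In mean normalised counts *Bmpr2* was above *Bmpr1b* and *Acvr2b* in both groups. *Bmpr1b*, a type I receptor gene of prechondrogenic condensations, averaged 422 ± 114 normalised counts in iCreb5 libraries and 481 ± 136 in tdTomato libraries (SD, n = 6 each). *Acvr1*, another type I receptor gene, averaged 1101 ± 116 in iCreb5 and 1076 ± 110 in tdTomato libraries.

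*Acvr2b*, a type II receptor gene shared with the activins, had the largest positive change among the receptors. Its lowest, median and highest values were 233, 287 and 358 normalised counts in iCreb5 libraries and 137, 195 and 369 in tdTomato libraries, and the groups overlapped. The log2 change was 0.50 (95% interval 0.043 to 0.97), with a limma adjusted p of 0.222. Without tdTomato library 3a, the shallowest and the one with the highest *Acvr2b* value, the log2 change was 0.67 and the adjusted p 0.0424. Of 23 alternative settings this was the only 1 that called it, and adjusted p-values reached 0.385. The related *Acvr2a* averaged 921 ± 162 in iCreb5 and 801 ± 92.0 in tdTomato libraries. The antisense gene *Orc4*, at 1556 to 2598 in iCreb5 and 1827 to 2451 in tdTomato libraries, covers 7.84% of its exon bases. Exons of other genes share bases with 10 members in all, 9 of them on the opposite strand. The co-receptor genes *Rgma* and *Rgmb*, whose membrane-anchored products bind BMPs, averaged 540 ± 69.4 and 1711 ± 153 normalised counts in iCreb5 libraries, and 470 ± 87.8 and 1585 ± 221 in tdTomato libraries.

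*Smad1* (ENSMUSG00000031681, chr8:79338395-79399518), a receptor-activated transducer of BMP signals, rose. It had 3645, 3470, 3595, 3701, 3129 and 3720 normalised counts in iCreb5 libraries 3a, 3b, 3c, 4a, 5 and 6, against 3133, 2817, 2457, 3053, 2314 and 2804 in tdTomato libraries 3a, 3b, 3c, 4a, 5b and 6d. The iCreb5 libraries were higher in every litter, and the groups overlapped only between iCreb5 library 5 and tdTomato library 3a. The log2 change was 0.36 ± 0.0996 (SE), a 1.29-fold higher level, with an adjusted p of 0.0364 by limma. Leaving out any 1 of 9 libraries, all but iCreb5 5, tdTomato 3a and tdTomato 4a, left an adjusted p between 0.0525 and 0.0874, above the threshold, with log2 changes between 0.32 and 0.37. Its start region, printed above, holds the TGACG half-site. The half-site also stands in windows of *Chrd*, *Id3*, *Id4*, *Nbl1*, *Smad5* and *Smad9*, which were not called, and in 20.8% of all windows.

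*Smad4*, the common partner of all receptor-activated Smads, was the highest Smad gene per kilobase, at 1251 in iCreb5 libraries and 1191 in tdTomato libraries. It averaged 4645 ± 519 normalised counts in iCreb5 libraries and 4422 ± 439 in tdTomato libraries, and its log2 change was 0.07. *Smad5*, another receptor-activated BMP transducer, averaged 1266 ± 296 normalised counts in iCreb5 libraries and 1270 ± 187 in tdTomato libraries (SD, n = 6 each). *Smad9*, also a BMP transducer, was the lowest member, at 78.5 ± 27.3 in iCreb5 and 85.1 ± 38.2 in tdTomato libraries, where 3 reads equal up to 8.38 normalised counts. The inhibitory Smad genes *Smad6* and *Smad7*, themselves induced by BMP signals, averaged 942 ± 106 and 698 ± 202 in iCreb5 libraries, and 796 ± 194 and 646 ± 76.0 in tdTomato libraries. Those 5 Smad genes had adjusted p-values between 0.406 and 0.957 by limma.

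The 4 *Id* genes, direct transcriptional targets whose products bind and inactivate helix-loop-helix factors, did not pass the test, and 0 of 4 had an unadjusted p under 0.05 by limma, a share that was 18.2% over all genes tested. edgeR and DESeq2 on the recovered reads called 0 of them, where they called 1112 and 1637 of the 16733 genes tested. Their log2 changes lay between -0.08 and 0.03, with adjusted p-values of 0.924 to 0.982. The intervals, from the fit without litter, were wide: that of *Id1* ran from -0.82 to 0.88 and that of *Id3* from -0.69 to 0.52, so that the interval of *Id1* reached 0.85 to either side of its estimate. Within litter 3 the interval of *Id1* ran from -0.64 to 0.34. Within litters 4 to 6, with litter as a term, it ran from -0.23 to 0.66. The sign of the log2 change matched between these litter sets for 1 of the 4 genes. The median SD within groups, on the log2 scale, was 0.59 over the *Id* genes and 0.35 over all genes tested.

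*Id1* had 2785, 2822, 3199, 3877, 11420 and 8556 normalised counts in iCreb5 libraries 3a, 3b, 3c, 4a, 5 and 6, against 2616, 4814, 2740, 4190, 12792 and 4520 in tdTomato libraries 3a, 3b, 3c, 4a, 5b and 6d. *Id3*, the highest of the 4, had a lowest, median and highest value of 11001, 13020 and 28212 in iCreb5 libraries and 10984, 15884 and 37166 in tdTomato libraries. *Id2* averaged 11258 ± 4847 in iCreb5 and 11813 ± 5858 in tdTomato libraries, and *Id4* 2069 ± 654 in iCreb5 and 2074 ± 619 in tdTomato libraries (SD, n = 6 each). The high libraries were iCreb5 5, iCreb5 6 and tdTomato 5b, that is, both libraries of litter 5 and 1 of the 2 of litter 6. The *Id* genes were at 1.47 to 3.57 times the median of the other libraries of their group in iCreb5 5, at 1.56 to 2.67 times in iCreb5 6 and at 1.74 to 3.05 times in tdTomato 5b. The summed red cell markers were also high there, at 14959 in iCreb5 5, 13965 in iCreb5 6 and 19968 in tdTomato 5b, and at 11646 in tdTomato 6d, where the *Id* genes were not high, against 1138 to 6549 in the other 8 libraries. Their part in the *Id* values was not tested. Without iCreb5 5 and iCreb5 6 the log2 change of *Id1* was -0.52 (limma adjusted p 0.395), and without litter 5 it was 0.07.

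**Figure D3:**
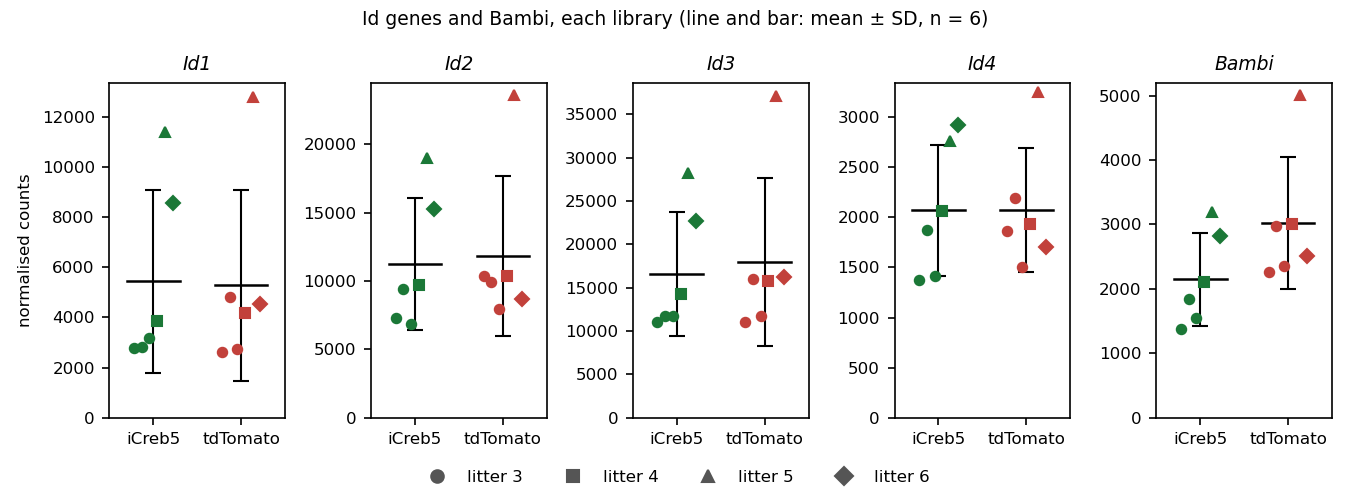
Normalised counts of the 4 *Id* genes and *Bambi* in each library, iCreb5 left of tdTomato, with marker shapes for litters and lines for mean ± SD (n = 6). Libraries of litter 5 (triangles) and iCreb5 6 stand above the other libraries of their own group, as with *Id1* at 11420 in iCreb5 5 and 12792 in tdTomato 5b.

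Of the 11 antagonists and modulators, 1 rose and 1 fell. *Grem1* (ENSMUSG00000074934, chr2:113746164-113758646), whose secreted product Gremlin binds BMP2, BMP4 and BMP7 and keeps limb outgrowth going, rose. It had 793, 757, 853, 1008, 765 and 1177 normalised counts in iCreb5 libraries 3a, 3b, 3c, 4a, 5 and 6, against 525, 441, 365, 614, 762 and 444 in tdTomato libraries 3a, 3b, 3c, 4a, 5b and 6d. The groups overlapped only through tdTomato 5b, which exceeded iCreb5 3b alone. The log2 change was 0.79 ± 0.176 (SE), a 1.73-fold higher level, with an adjusted p of 0.0111 by limma.

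*Bmper* (ENSMUSG00000031963, chr9:23223076-23485200), a BMP-binding protein that dampens or aids signalling depending on context, fell. It had 1320, 1529, 1381, 1451, 916 and 1146 normalised counts in iCreb5 libraries 3a, 3b, 3c, 4a, 5 and 6, against 2275, 2013, 2474, 2049, 1258 and 1709 in tdTomato libraries 3a, 3b, 3c, 4a, 5b and 6d. The iCreb5 library was lower within litters 4, 5 and 6, and the 3 of litter 3 lay below their 3 tdTomato counterparts. The log2 change was -0.59 ± 0.166 (SE), a 1.51-fold lower level, with an adjusted p of 0.0415 by limma. The adjusted p lay between 0.0529 and 0.0973 without any 1 of 10 libraries, all but iCreb5 3b and tdTomato 5b. With libraries rescaled to equal totals it was 0.0963.

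**Figure D4:**
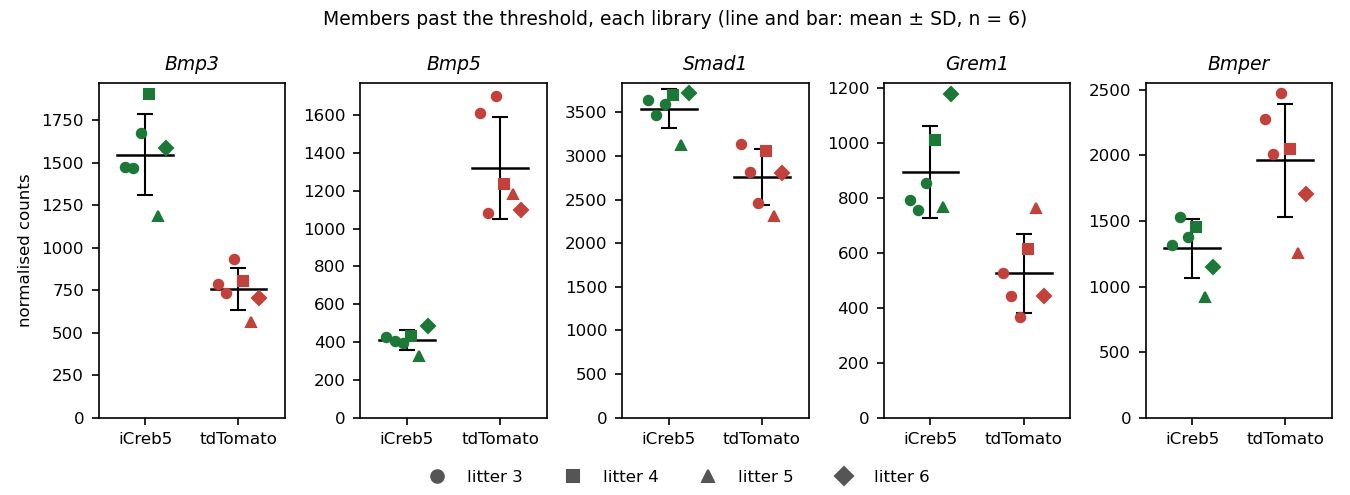
Normalised counts of the 5 BMP genes past the threshold in each library, iCreb5 left of tdTomato, with marker shapes for litters and lines for mean ± SD (n = 6). *Bmp3* and *Bmp5* separate completely, while *Smad1*, *Grem1* and *Bmper* overlap at 1 or a few libraries.

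The other 9 antagonists and modulators did not pass the test, at adjusted p-values of 0.0816 to 0.996 by limma. *Fstl1*, a secreted glycoprotein reported to bind BMP4, was by far the highest per kilobase, at 8808 in iCreb5 libraries and 7185 in tdTomato libraries. It averaged 43284 ± 3392 normalised counts in iCreb5 libraries and 35309 ± 3409 in tdTomato libraries. Its log2 change was 0.30 with an adjusted p of 0.0816. *Fst*, whose product follistatin sequesters activins and some BMPs, averaged 2356 ± 361 normalised counts in iCreb5 libraries and 1830 ± 266 in tdTomato libraries (SD, n = 6 each). *Sostdc1*, an inhibitor of BMP and Wnt signalling, averaged 1684 ± 316 in iCreb5 and 1269 ± 261 in tdTomato libraries.

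*Chrd*, whose product chordin binds BMPs directly, averaged 888 ± 244 normalised counts in iCreb5 libraries and 677 ± 115 in tdTomato libraries. Its relative *Chrdl1* averaged 916 ± 168 in iCreb5 and 1203 ± 301 in tdTomato libraries, and *Bambi*, a decoy receptor gene induced by BMP signals, 2146 ± 722 in iCreb5 and 3021 ± 1024 in tdTomato libraries. The groups overlapped for each of the 3. *Twsg1*, a partner of chordin, averaged 8545 ± 1780 in iCreb5 and 7926 ± 1411 in tdTomato libraries. *Nbl1*, a member of the DAN family of antagonists, averaged 4710 ± 662 in iCreb5 and 4703 ± 664 in tdTomato libraries, and its log2 change of 0.0024 was the smallest in size of all members.

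The litter labels pair the libraries, so the groups were also compared with litter as a block. With the block, 5 members were higher and 5 lower, while over all genes the shares became 5.13% higher and 4.35% lower. The added genes were *Fstl1* (adjusted p 0.0329) and *Sostdc1* (0.0390) among those higher, and *Bmp2* (0.0153), *Bambi* (0.0296) and *Chrdl1* (0.0486) among those lower, by limma. With the libraries of litter 3 averaged first, so that each litter counted once, 1 member was higher, *Bmp3*, and 2 were lower, *Bmp5* and *Bmper*, where 3.05% of all genes were higher and 2.4% lower. *Grem1* then had an adjusted p of 0.0641 and *Smad1* one of 0.0605. Totals of normalised counts were 24.2 to 25.4 M in iCreb5 libraries and 25.2 to 28.0 M in tdTomato libraries (exact permutation test, p 0.00649). With libraries rescaled to equal totals, the median log2 change of all genes was 0.07 and 67.7% of all calls were higher, against 57.6% without rescaling. There 4 members were higher, *Fstl1* being added, and 1 was lower, *Bmper* being lost, where 4.77% of all genes were higher and 2.28% lower.

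Within litter 3 alone (3 against 3 libraries), *Bmp3* and *Grem1* rose and *Bmp5* and *Bmper* fell, where 2.36% of all genes tested rose and 1.75% fell. Within litters 4 to 6, with litter as a term, *Bmp3* rose and *Bmp5* fell, where 1.91% of all genes rose and 2.2% fell. The log2 change of *Bmp3* was 0.91 in litter 3 and 1.16 in litters 4 to 6, and that of *Bmp5* was -1.81 in litter 3 and -1.52 in litters 4 to 6. In all, the sign of the log2 change matched between litter 3 and litters 4 to 6 for 25 of 35 members, as it did for 10023 of the 16733 genes tested.

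Whether the change differed between litter 3 and litters 4 to 6 was tested as an interaction by limma. It was past an adjusted p of 0.05 for 0 members and for 0% of all genes tested, and it had an unadjusted p under 0.05 for 2 members, where 8.96% of all genes did. These were *Nog* and *Bmp6*. *Nog*, the gene of the BMP antagonist noggin that joint formation requires in mice, had a log2 change of -0.88 in litter 3 and of 0.35 in litters 4 to 6 (interaction p 0.00645, adjusted p 0.501). Its values were 388, 681 and 340 in iCreb5 libraries 3a, 3b and 3c, against 639, 1142 and 773 in tdTomato libraries 3a, 3b and 3c, and the groups overlapped at iCreb5 3b. In litters 4, 5 and 6 they were 992, 1113 and 1032 in iCreb5 libraries, against 785, 1057 and 657 in tdTomato libraries, so the iCreb5 library was higher in each of these litters.

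**Figure D5:**
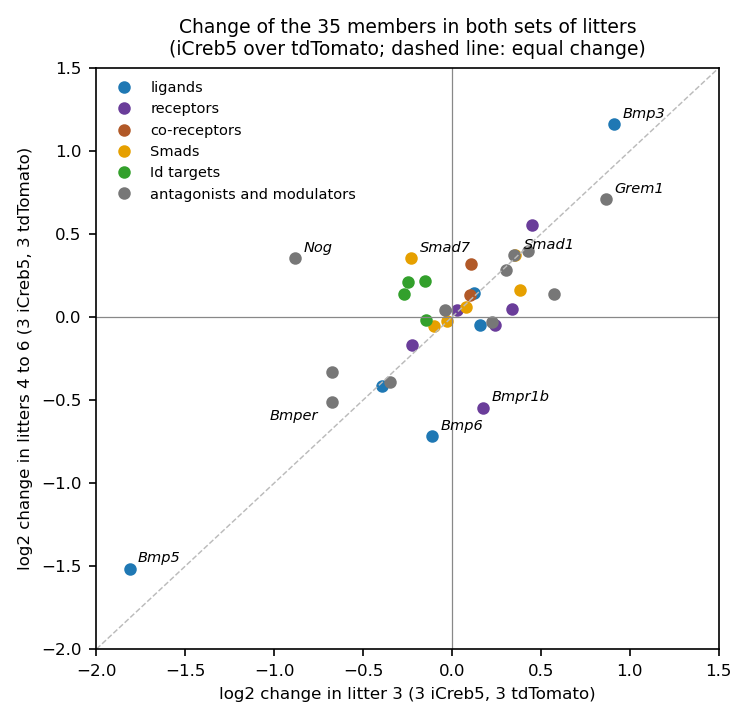
Log2 change of each of the 35 BMP genes, iCreb5 over tdTomato, in litter 3 (horizontal axis) against litters 4 to 6 (vertical axis), coloured by role, with 3 libraries per group in each set. *Bmp3* and *Bmp5* lie near the dashed line of equal change, and *Nog* lies at -0.88 and 0.35.

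A further 39 genes of the pathway, from a textbook list, were examined, of which 32 passed the filter. This list too was chosen with earlier results known. Among these 32, 2 rose and 1 fell by limma, near the 1.24 and 0.912 calls that the shares over all genes would give. *Gdf6*, a BMP-family ligand gene needed for some limb joints in mice, had 71.1, 166 and 383 normalised counts (lowest, median and highest) in iCreb5 libraries and 35.8, 68.0 and 102 in tdTomato libraries. Its log2 change was 1.45 with an adjusted p of 0.0196, the groups overlapped, and without iCreb5 library 3b the adjusted p was 0.0540. *Chrdl2*, a chordin relative, had 90.5, 101 and 166 in iCreb5 libraries and 30.7, 55.1 and 79.0 in tdTomato libraries, without overlap (log2 change 1.07, adjusted p 0.0155).

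*Dlx5*, a homeobox gene of cartilage and bone that responds to BMPs, fell. It had 240, 261 and 495 normalised counts (lowest, median and highest) in iCreb5 libraries and 614, 834 and 873 in tdTomato libraries. The groups did not overlap, and the log2 change was -1.33 with an adjusted p of 0.000289 by limma. Of the 5 target genes in this list, *Msx1*, *Msx2*, *Hey1* and *Atoh8* did not pass the test. *Msx1*, a homeobox target expressed in distal limb mesenchyme, averaged 1442 ± 505 in iCreb5 libraries and 2161 ± 697 in tdTomato libraries (SD, n = 6 each). Its log2 change was -0.60 with an adjusted p of 0.171, and with litter as a block the adjusted p was 0.0386 by limma. The median log2 change was -0.049 over the 32 genes, against 0.0038 over all genes tested.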

How the data were processed

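RNA from sorted limb mesenchyme was sequenced in 12 libraries, 6 iCreb5 and 6 tdTomato, grouped by their titles. The submitters' processing notes name FastQC, STAR, Salmon, DESeq2 and build mm10, with no version or role. The authors deposited a normalised signal per gene: reads scaled by library-specific size factors. This was read from the values, 100% of which were whole multiples of a library's unit within a tolerance of 1e-06. The recovered reads gave the depth. At 3 reads a library's value was between 1.48 and 8.38, which covers counting error only. A second deposited table has 8 value columns that match no labelled sample and was not used. Of the 54532 genes, 23386 were at 0 in all 12 libraries. The Nextera XT kit named in the labels does not mark strand.

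The test was limma 3.58.1 under R 4.3.3, with a trended eBayes step and no covariate, two-sided, applied to log2(value + 1). The added 1 understates changes of weakly expressed genes. Genes reaching 10 in 6 or more libraries were tested (16733), and a Benjamini-Hochberg adjusted p under 0.05 over all of them was a call. Fold changes are ratios of geometric means of value + 1. Litter 3 alone, litters 4 to 6 with litter as a term, and their interaction were fitted in the same way. Alternatives were a pseudocount of 5, no filter, a mean value of at least 50, libraries rescaled to equal totals, edgeR 4.0.16 (quasi-likelihood) and DESeq2 1.42.0 on the recovered reads, litter as a block, and libraries left out. The scripts were tested on simulated data. Levels per kilobase and coordinates used the merged exons of GENCODE release M21 on mm10. Promoter windows came from RefSeq.

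Litter labels pair the libraries. The correlation of deviations from the group means between the groups within a litter, over the 1000 most variable genes, was 0.168 in litter 3, 0.202 in litter 4, 0.149 in litter 5 and 0.0294 in litter 6. The labels mark 4 litters, whereas the design text speaks of 6.

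All 35 members are named. Those past the threshold, or with groups that do not overlap, are given with every library's value, the others with group means or with values for libraries or ranges. Of the other pathway genes those past the threshold are named. *Gm26903*, *Txndc5*, *Orc4*, *Msx1*, *Gdf5*, *Tgfbr3*, *Neo1*, *Bmp1* and *Bmp8a*, and the libraries described for *Id1*, *Id3*, *Nog* and *Acvr2b*, were chosen after values were seen. The members and lists were chosen with earlier results of these data known.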

Additional observations from a re-analysis of the deposited data

Results flagged for a closer look

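In 8 of the 70 groups of 6 libraries examined (35 members in each group), the highest or lowest library stood apart from the others by Dixon's test. Chance gives about 5% of groups if values are normally distributed, which was not checked. The share over all genes tested was not computed, so an excess particular to the members cannot be read from this count. All 8 values were in tdTomato libraries, and 5 of them were in library 5b of litter 5.

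Of those, 4 were the highest of their group. In tdTomato 5b *Id1* was at 12792 normalised counts, with the next tdTomato library at 4814. *Id2* was at 23600 there, with the next at 10400. *Id3* was at 37166, with the next at 16220, and *Bambi* at 5013, with the next at 3008. *Acvr1* was lowest in the same library, at 855, with the next at 1090. The red cell marker sum was highest in this library, at 19968, as was the total of normalised counts, at 28.0 M. Their part in these values was not tested.

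The 3 other values came from litters 3 and 4. *Bmp2* was highest in tdTomato 4a, at 1722, with the next at 1179. *Acvr2a* was lowest in tdTomato 3b, at 626, with the next at 787. *Smad7* was lowest in tdTomato 3a, the shallowest library, at 494, with the next at 662.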

How the results depend on the processing

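Across 23 alternative settings *Bmp3* and *Bmp5* were past the threshold in all 23, *Grem1* in 22, *Smad1* in 11 (adjusted p 0.00501 to 0.0874) and *Bmper* in 10 (0.00107 to 0.142). The 5 called members kept their direction in all 23. The count of members higher was 3, and became 5 with litter as a replicate block and 1 with that block and litter 3 averaged. The count lower was 2, and became 5 with the block, 1 without the filter and 1 with equal totals. Without the filter 556 of 31146 genes were higher and 380 lower. Leaving out single libraries gave 2 to 4 members higher and 1 to 2 lower, with 865 to 1216 of all genes called. The main fit called 648 genes higher and 477 lower. The count of other pathway genes was 3, and became 5 without iCreb5 5 and iCreb5 6, where 646 of all genes were higher and 498 lower. Litter 5 was left out after its *Id* values had been seen, giving 4 members higher and 2 lower. In that setting 731 of all genes were higher and 539 lower. The cause of these shifts was not tested.

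Signs turned only among members that were not past the threshold. Their log2 changes over all 12 libraries were between -0.08 and 0.06, except -0.26 for *Nog*. Without tdTomato 3a and 5b, values were -0.091 for *Bmp7*, -0.028 for *Acvr1*, 0.042 for *Smad5*, -0.014 for *Smad7*, 0.19 for *Id2*, 0.066 for *Id3*, 0.13 for *Id4* and -0.039 for *Nbl1*. Without iCreb5 5 and 6 they were -0.12 for *Smad7*, -0.52 for *Id1* and -0.094 for *Nbl1*. Without litter 5 they were -0.020 for *Smad7* and 0.025 for *Id4*. With equal totals they were 0.040 for *Smad5*, 0.0025 for *Id2* and 0.049 for *Id4*. With the averaged litter block they were 0.036 for *Id2*, 0.096 for *Id4* and 0.045 for *Nog*. edgeR gave 0.0010 for *Smad5* and 0.0021 for *Id4*, and DESeq2 gave -0.00054 for *Nbl1*. Leaving out single libraries gave -0.033 to 0.13 for *Bmp7*, -0.031 to 0.088 for *Acvr1*, -0.11 to 0.087 for *Smad5*, -0.034 to 0.21 for *Smad7* and -0.22 to 0.073 for *Smad9*. It gave -0.23 to 0.33 for *Id1*, -0.24 to 0.16 for *Id2*, -0.26 to 0.15 for *Id3*, -0.13 to 0.12 for *Id4* and -0.073 to 0.078 for *Nbl1*.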

Other observations

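*Gdf5*, the joint-forming BMP-family ligand gene, averaged 1068 ± 79.0 normalised counts in iCreb5 libraries and 967 ± 187 in tdTomato libraries (SD, n = 6 each), with a log2 change of 0.16 and a limma adjusted p of 0.585. Over all 12 libraries none of the 5 further receptor and co-receptor genes and none of the 8 intracellular modulators passed the test, and 0 of them had an unadjusted p under 0.05 by limma, against 18.2% of all genes tested. edgeR and DESeq2 called 0 of them, where they called 1112 and 1637 of the 16733 genes tested. Their median log2 changes were -0.030 and -0.016. Within litters 4 to 6 alone, the co-receptor gene *Tgfbr3* was lower, with a log2 change of -1.10 and an adjusted p of 0.00582 by limma, while in litter 3 its log2 change was 0.28 with an adjusted p of 0.681. *Neo1*, a receptor gene for the repulsive guidance molecules, had a log2 change of -0.52 in litters 4 to 6 (adjusted p 0.0574) and of 0.47 in litter 3 (0.443). The limma interaction with litter set was past the threshold for 0 of these 5 receptor and co-receptor genes, the lowest adjusted p being 0.501. Of the 32 further pathway genes tested, 7 (21.9%) had an unadjusted interaction p under 0.05, where 8.96% of all genes did. *Bmp1*, whose protease product cleaves chordin and procollagens, had a log2 change of 0.38 with an adjusted p of 0.232. Without iCreb5 5 and iCreb5 6 it was called, with a log2 change of 0.57 and an adjusted p of 0.0399, as was *Bmp8a*, at -2.87 and 0.0385. Each was called in this setting only. The libraries left out held the lowest iCreb5 values of *Bmp1* and the highest of *Bmp8a*. *Bmp8a* was weakly expressed, at 0 to 18.9 normalised counts in iCreb5 and 8.38 to 53.2 in tdTomato libraries. Over all 12 libraries its log2 change was -2.13 with a limma adjusted p of 0.116. The 5 target genes *Msx1*, *Msx2*, *Dlx5*, *Hey1* and *Atoh8* all had negative log2 changes, from -1.33 to -0.065, and 1 of them passed the test. Of all 16733 genes tested, 8273 had a negative change. The 4 *Id* targets among the members had log2 changes between -0.08 and 0.03.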
